A study of Mus musculus with 6 samples.

Results

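Genes of the Notch pathway, 10 in number, were followed in Fezf1-deficient olfactory cells, taken by symbol as a fixed list: the ligand genes Dll1, Dll3 and Jag1, the receptor genes Notch1 and Notch2, and the transcriptional regulator genes Hes1, Hes5, Hes6, Hey1 and Heyl. All 10 were found among the 19938 genes tested, each with 1 probe set. None of them was called different between the genotypes over all 6 arrays. Without null replicate 1, an array that stood apart from the other 5, Jag1 was lower in null cells.

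Notch signalling passes between neighbouring cells. A ligand of the Delta or Jagged family on one cell engages a Notch receptor on the next, the receptor is cleaved, and its intracellular domain joins the DNA-binding protein RBPJ to switch on repressor genes of the Hes and Hey families. In neural tissue these repressors hold back the proneural bHLH genes, so that cells which express Delta become neurons and their neighbours do not. In the olfactory epithelium Dll1 and Hes5 are known from the neuronal progenitors, and Hes1 and Notch2 from the sustentacular cells, the supporting cells of the epithelium. Fez family zinc-finger proteins are known to repress Hes5 in the developing forebrain.

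The cells were sorted for green fluorescence from the main olfactory epithelium of C57BL/6 embryos at E18.5. They came from Fezf1-/- embryos (called null here, 3 arrays) and Fezf1+/- embryos (called heterozygous, 3 arrays). Both genotypes carry the targeted allele, in which EGFP is expressed from the endogenous Fezf1 promoter, so the heterozygous cells are not wild type. The sort selects for cells that use this promoter, with or without the protein. Markers of other cells were also found on these arrays and are given below. Total RNA was hybridised to Affymetrix Gene 1.0 ST arrays, and the labels do not say whether the replicates were separate embryos, litters or pools, so that p-values measure only the spread between these samples. Values are log2 signals, and differences are null minus heterozygous on that scale.

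Fezf1 itself stood at 5.56, 5.92 and 6.28 on the null arrays, against 11.25, 11.13 and 11.30 on the heterozygous arrays. Omp, the marker protein gene of mature olfactory neurons, stood at 9.09, 10.77 and 10.84 in null cells and at 11.84, 11.82 and 12.12 in heterozygous cells. Null replicate 1 correlated with the other arrays at 0.905 to 0.935 across genes, and the other 5 among each other at 0.975 to 0.995. The 10 genes are therefore compared with and without it, and single genes of the rest of the pathway over all 6 arrays unless stated. The lowest value of any of the 10 genes was 5.64. The lower quartile of an array lay between 4.30 and 4.44, and its median between 5.82 and 5.95. Dll1, Dll3 and Heyl were dim, with means under the median of the means of all genes.

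Among the ligand genes, the values of Dll1 did not overlap between the genotypes, and Jag1 was called once null replicate 1 was left out. Dll1 encodes the Delta ligand of neural progenitors. It stood at 6.35, 6.44 and 6.39 on the null arrays, against 5.97, 6.00 and 5.69 on the heterozygous arrays. The null values lay within 0.1 of each other and all above the heterozygous ones. The difference was 0.51 (SE 0.11, 95% interval 0.23 to 0.78), a 1.42-fold higher mean signal in null cells, with a limma adjusted p of 0.199 that missed the threshold of 0.05. It was 0.53 (SE 0.12, limma adjusted p = 0.0864) without null replicate 1. With each array weighted by its own spread the difference of 0.51 did pass (limma adjusted p = 0.033). That weighted fit called 740 of 19938 genes, against 110 in the unweighted fit. By rank of the unadjusted p in the unweighted fit, Dll1 was number 386 of 19938 genes over all 6 arrays.

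Jag1, a Jagged ligand, stood at 8.61, 6.99 and 6.90 on the null arrays, against 7.66, 7.86 and 7.75 on the heterozygous arrays. Null replicates 2 and 3 lay below every heterozygous array and null replicate 1 above all of them. Over all 6 arrays the difference was -0.26 (SE 0.46, limma adjusted p = 0.865), with an interval from -1.38 to 0.87. In the 5 arrays without null replicate 1, Jag1 fell by 0.81 (SE 0.10, limma adjusted p = 0.0118). Null cells thus had 1.76-fold less signal, with an interval from 1.49-fold to 2.08-fold lower. The call rests on 2 null arrays, which differed from each other by 0.093, while the heterozygous arrays spanned 0.20. In RNA of a bulk sort, fewer cells of a type and less RNA per cell cannot be told apart. Jag1 had no call in any of the fits that kept null replicate 1, and without null replicate 3 its difference was 0.044.

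Dll3, a Delta ligand that acts inside the cell rather than on its surface, stood at 6.00, 5.80 and 5.77 in null cells, against 5.72, 5.85 and 5.80 in heterozygous cells. The groups overlapped. The difference was 0.07 (SE 0.10, limma adjusted p = 0.830), and the interval ran from 0.886-fold to 1.24-fold of the heterozygous signal. Without null replicate 1 it was -0.00047 (SE 0.09, limma adjusted p = 0.999).

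The promoter windows of Dll1 and Jag1 are shown because these are the ligand genes whose values separated the genotypes in at least one fit. They come from RefSeq on GRCm38.p6 and run from 250 bases before to 50 bases after an annotated start, and 7 of the 10 genes had such a window (Hes1, Hey1 and Heyl had none), 9 windows in all. Capitals mark matches to binding letters known for Hes-type repressors, the N box CACNAG and the class C site CACGNG, and to the RBPJ core TGGGAA, each searched on both strands. Dll1 has a window at chr17:15376883-15377182 and another at chr17:15375774-15376073, and Jag1 one at chr2:137116471-137116770, all on the minus strand and printed 5′ to 3′ in the sense of the gene.
Dll1, upstream start: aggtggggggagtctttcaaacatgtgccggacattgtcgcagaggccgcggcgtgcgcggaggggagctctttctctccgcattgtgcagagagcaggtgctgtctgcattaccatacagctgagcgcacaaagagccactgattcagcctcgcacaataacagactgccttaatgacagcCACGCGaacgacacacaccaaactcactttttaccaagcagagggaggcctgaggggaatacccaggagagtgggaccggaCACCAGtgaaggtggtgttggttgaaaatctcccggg
Dll1, downstream start: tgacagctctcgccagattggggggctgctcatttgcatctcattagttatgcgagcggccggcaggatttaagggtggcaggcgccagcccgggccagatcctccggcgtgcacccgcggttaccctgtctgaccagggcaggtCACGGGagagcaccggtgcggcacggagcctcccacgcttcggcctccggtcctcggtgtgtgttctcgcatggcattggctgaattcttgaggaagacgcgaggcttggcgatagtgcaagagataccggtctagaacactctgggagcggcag
Jag1: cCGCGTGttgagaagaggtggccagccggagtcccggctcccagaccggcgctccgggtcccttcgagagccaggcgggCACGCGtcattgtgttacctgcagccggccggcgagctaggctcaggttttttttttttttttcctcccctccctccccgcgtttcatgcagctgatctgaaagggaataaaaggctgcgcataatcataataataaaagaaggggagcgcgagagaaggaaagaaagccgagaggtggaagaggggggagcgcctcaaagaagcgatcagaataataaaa
The upstream Dll1 window holds 1 N box and 1 class C site, the downstream one 1 class C site, and the Jag1 window 2 class C sites. None of these 3 windows holds the RBPJ core. A class C site occurs in 27.5% of 32851 promoter windows of this length and in 5 of the 9 windows of the Notch genes, and an N box in 42.5% of all windows and in 4 of the 9. N box and class C matches do not overlap in the windows shown.

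**Figure D1:**
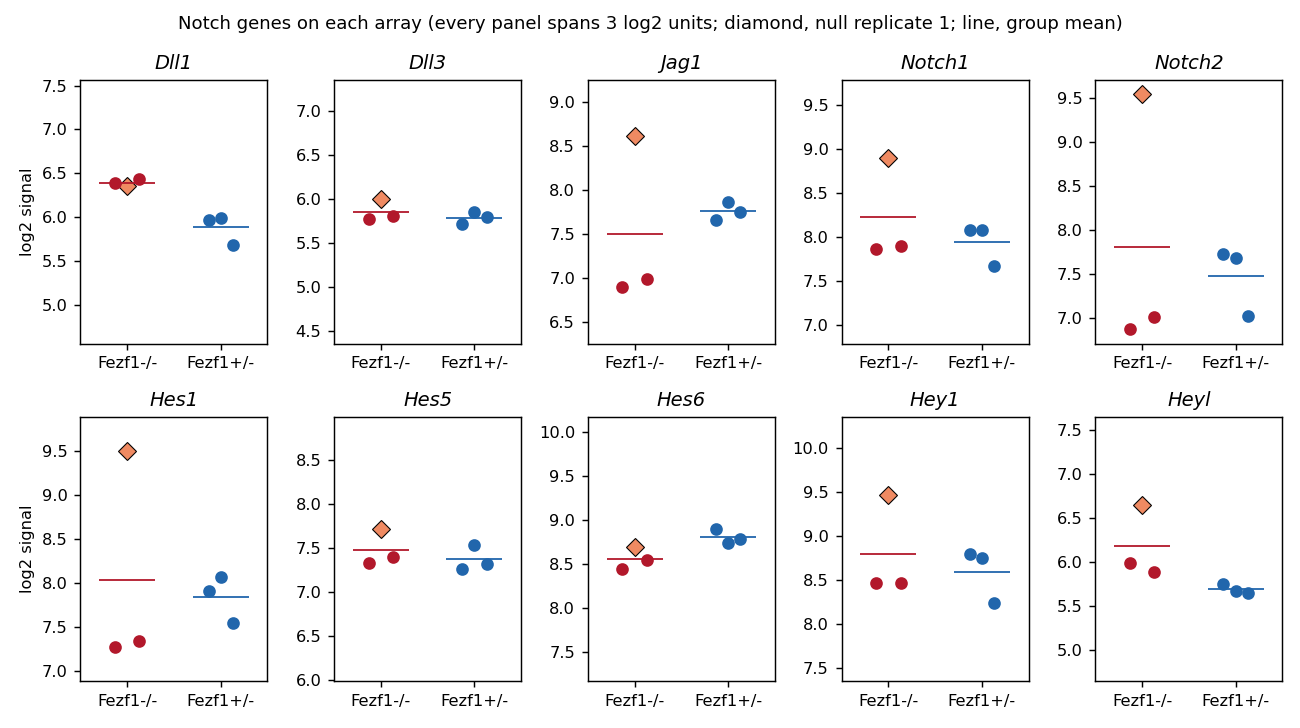
Log2 signal of the 10 Notch genes on each array, null (Fezf1-/-, left) and heterozygous (Fezf1+/-, right), with a panel per gene that spans 3 log2 units. Points are arrays, the diamond is null replicate 1 and lines are group means. Dll1 has all null values above the heterozygous ones, while in Jag1, Notch2 and Hes1 the diamond lies above and the other null arrays below the heterozygous arrays.

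The receptor genes gave no call in either fit. Notch2 stood at 9.55, 7.01 and 6.88 on the null arrays, against 7.73, 7.69 and 7.02 on the heterozygous arrays. Null replicate 1 was far above all other arrays, and null replicates 2 and 3 lay just below the lowest heterozygous array. The difference was 0.33 (SE 0.73, limma adjusted p = 0.891) over all 6 arrays and -0.53 (SE 0.22, limma adjusted p = 0.296) without null replicate 1, so its sign turned with that array.

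Notch1, the receptor best known from neural progenitors and vessels, stood at 8.90, 7.90 and 7.86 in null cells, against 8.08, 8.08 and 7.67 in heterozygous cells. The groups overlapped with and without null replicate 1. The difference was 0.28 (SE 0.31, limma adjusted p = 0.782), and -0.06 (SE 0.15, limma adjusted p = 0.881) without that array.

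Of the Hes and Hey genes, Hes5 is the one with a known tie to Fez proteins, and its signal did not separate the genotypes. Hes5 encodes a repressor that Notch switches on in neural progenitors. It stood at 7.71, 7.40 and 7.33 on the null arrays, against 7.26, 7.53 and 7.31 on the heterozygous arrays. The groups overlapped, and the highest value was again that of null replicate 1. The difference was 0.11 (SE 0.14, limma adjusted p = 0.805), with a 95% interval from 0.856-fold to 1.36-fold of the heterozygous signal. Without null replicate 1 it was -0.0032 (SE 0.11, limma adjusted p = 0.993), with an interval from 0.829-fold to 1.20-fold. Changes within these intervals remain compatible with the values, and the second interval rests on 2 null arrays.

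The Hes5 promoter window is shown because it was the only one of the 9 windows of the Notch genes with the RBPJ core, the letters through which the Notch complex is known to act. It lies at chr4:154960673-154960972 on the plus strand (RefSeq, GRCm38.p6), and capitals mark that core.
Hes5: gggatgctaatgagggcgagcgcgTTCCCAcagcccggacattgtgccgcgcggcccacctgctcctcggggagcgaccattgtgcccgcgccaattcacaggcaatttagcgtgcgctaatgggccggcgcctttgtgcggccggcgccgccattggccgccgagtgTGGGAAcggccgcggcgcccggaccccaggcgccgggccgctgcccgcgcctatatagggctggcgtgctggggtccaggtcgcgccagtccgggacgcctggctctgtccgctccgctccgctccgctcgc
The core stands 2 times, as TTCCCA (the reverse strand) from position -226 and as TGGGAA from position -82, counted from the annotated start. It occurs in 25.6% of all promoter windows. The window holds neither an N box nor a class C site.

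Hes1, the repressor that marks supporting and basal cells as well as many non-neural tissues, stood at 9.50, 7.34 and 7.27 on the null arrays, against 7.91, 8.07 and 7.54 on the heterozygous arrays. As in Jag1, null replicate 1 lay above and the other null arrays below every heterozygous array. The difference was 0.19 (SE 0.61, limma adjusted p = 0.925) over all 6 arrays. Without null replicate 1 it was -0.54 (SE 0.16, limma adjusted p = 0.171), a 1.45-fold lower signal that missed the threshold.

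Hes6, which differs from the other members in promoting neuronal differentiation and in opposing Hes1, stood at 8.69, 8.54 and 8.44 in null cells, against 8.90, 8.74 and 8.78 in heterozygous cells. All null values lay below the heterozygous ones, by a small margin. The difference was -0.25 (SE 0.10, limma adjusted p = 0.530), and -0.32 (SE 0.10, limma adjusted p = 0.187) without null replicate 1.

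Heyl, a Hey-family repressor known from vascular mural cells and some neurons, stood at 6.65, 5.88 and 5.98 on the null arrays, against 5.74, 5.67 and 5.64 on the heterozygous arrays. All null values lay above the heterozygous ones. The difference was 0.49 (SE 0.21, limma adjusted p = 0.539), and 0.25 (SE 0.09, limma adjusted p = 0.256) without null replicate 1. Hey1, a relative of Heyl, stood at 9.47, 8.47 and 8.47 in null cells, against 8.80, 8.75 and 8.25 in heterozygous cells. Those groups overlapped, and the difference was 0.20 (SE 0.31, limma adjusted p = 0.843), or -0.13 (SE 0.18, limma adjusted p = 0.772) without null replicate 1.

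**Figure D2:**
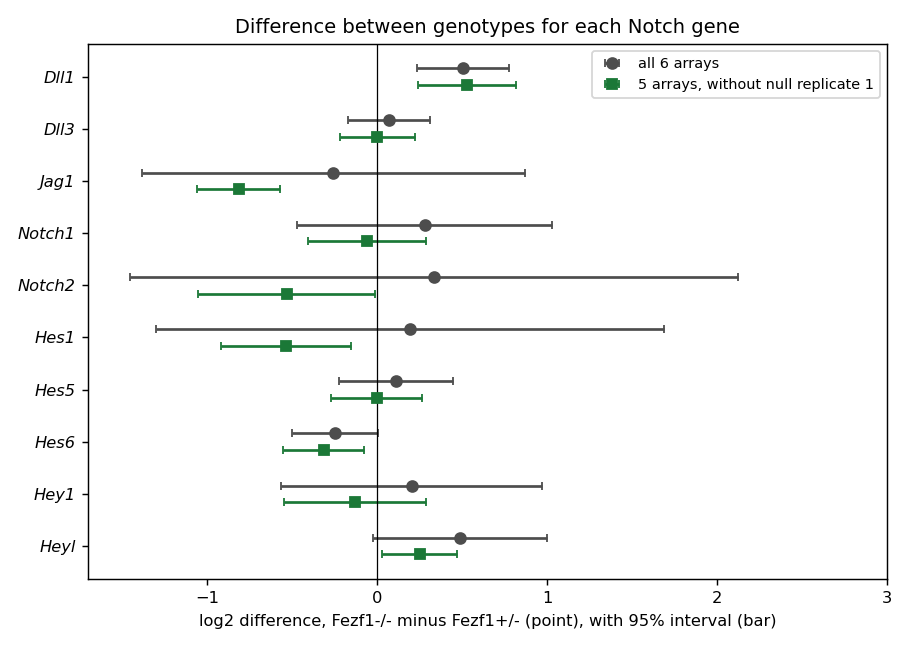
Difference between null (Fezf1-/-) and heterozygous (Fezf1+/-) cells in log2 units for each Notch gene, null minus heterozygous, with 95% intervals from limma, over all 6 arrays (circles) and without null replicate 1 (squares). Intervals of Jag1, Notch2 and Hes1 narrow when that array is left out, that of Jag1 then running from -1.06 to -0.57, while Dll1 keeps a difference of 0.51 to 0.53.

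Counted together, 0 of the 10 genes passed limma's adjusted p of 0.05 over all 6 arrays, where 0.552% of all genes did. At an unadjusted p under 0.05 there was 1 gene, Dll1, against 9.48% of all genes (4.23% higher and 5.25% lower in null cells). All null values lay above the heterozygous ones in 2 of the 10, Dll1 and Heyl, against 9.72% of all genes, and below them in 1, Hes6, against 8.77%. The median difference of the list was 0.20, and that of all genes 0.02. Positive differences numbered 8 of the 10, against 10926 of 19938 genes.

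Without null replicate 1 the list looked different. Jag1 alone passed, 1 of 10, where 2.66% of all genes did. An unadjusted p under 0.05 was reached by 6 of the 10, against 16.3% of all genes. Of these, Dll1 and Heyl had higher values in null cells (7.63% of all genes), and Jag1, Hes1, Hes6 and Notch2 lower ones (8.68% of all genes). The groups did not overlap in these 6 genes, where 19.9% of all genes lay wholly above and 16.3% wholly below the heterozygous arrays. The median difference was -0.10, with 2 of the 10 positive (11022 of 19938 genes), while the median of all genes stayed at 0.02.

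On null replicate 1 the 10 listed Notch genes were high as a group. In 8 of the 10 it had the highest value of all arrays, where it did so in 29.2% of all genes, and it had the lowest in 0 of them, against 32.7% of all genes. Notch2 stood 2.60 above the mean of null replicates 2 and 3, Hes1 2.19, Jag1 1.67, Notch1 1.02, Hey1 1.00 and Heyl 0.71. Hes5 stood 0.34 above that mean, Dll3 0.21 and Hes6 0.20, while Dll1 differed from it by -0.06. Null replicates 2 and 3 differed from each other by at most 0.13 in any of the 10 genes. The 67 other pathway genes, described further below, were not high as a group on null replicate 1. That array had the highest value in 29 of them and the lowest in 23. Their median stood 0.08 above the mean of null replicates 2 and 3.

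Markers of other cells moved with these values on the same array. All 10 markers of mesenchyme and bone were highest there, with a mean log2 signal of 10.1 on null replicate 1, against 6.35 and 6.72 on the other null arrays and 6.14 to 7.23 on the heterozygous arrays. Markers that were highest on null replicate 1 also numbered 10 of 10 for endothelium, 10 of 10 for myeloid cells, 9 of 10 for mural cells, 7 of 8 for ensheathing glia, 9 of 11 for sustentacular cells, 8 of 9 for horizontal basal cells, 5 of 8 for microvillar cells and 5 of 11 for cycling cells, against 29.2% of all genes. Markers of mature olfactory neurons were lowest there in 12 of 13 and those of immature neurons in 10 of 10. No marker is listed at 0, since log2 values of this kind have a floor above it. The part of these cells in the high Notch2, Hes1 and Jag1 signals was not tested.

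**Figure D3:**
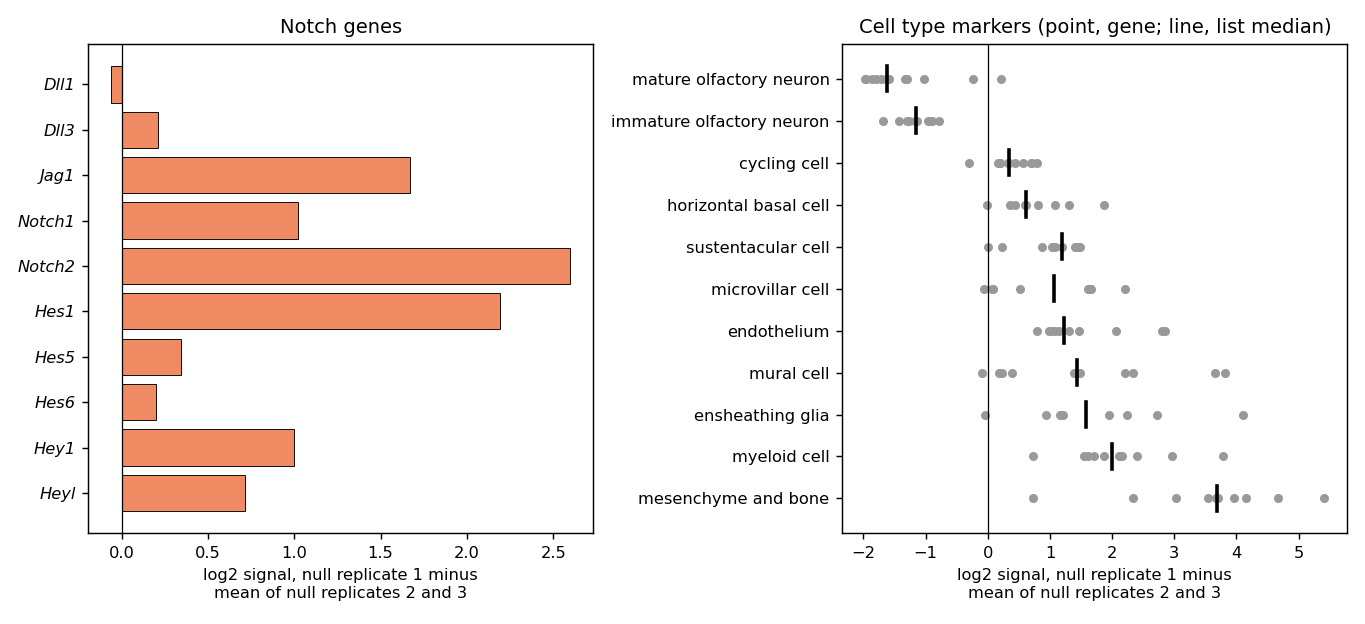
Log2 signal of null replicate 1 minus the mean of null replicates 2 and 3, for the 10 Notch genes (left, bars) and for marker genes of 11 cell types (right, points, with a line at each list median). The Notch genes run from -0.06 in Dll1 to 2.60 in Notch2, and the list medians from -1.63 in mature olfactory neurons to 3.69 in mesenchyme and bone.

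Of the 10 genes, Jag1, Hes1, Hes6 and Notch2 were lower in null cells without null replicate 1, at an unadjusted p under 0.05. Jag1 alone was called, and Dll1 and Heyl were higher at that threshold. On the same 5 arrays stood lower values of supporting cell genes and of some markers of other cells. Of 11 sustentacular markers, 7 were lower in null cells at an unadjusted p under 0.05 (8.68% of all genes) and 1 was higher, Krt8 (0.60). In this list 1 gene passed, Ermn (-0.96, limma adjusted p = 0.024), where 2.66% of all genes did, and the list median was -0.58. The mean log2 signal of this list was 9.13 and 9.02 on null replicates 2 and 3, against 9.58, 9.80 and 9.33 on the heterozygous arrays, so these groups did not overlap. The mural cell list had a median of 0.05, and 1 of its 10 genes passed, Rgs5 (-1.29, limma adjusted p = 0.0278), named like Ermn and Krt8 after its value was seen. Mature neuron markers passed in 5 of 13, all lower (list median -0.89), and immature neuron markers in 1 of 10, higher (list median 0.32). The 11 markers of cycling cells had a median of -0.21 and none passed. Of 8 microvillar markers, 3 were lower at an unadjusted p under 0.05 (8.68% of all genes) and 1 was higher (7.63%). None of them passed, and the list median was -0.25. List medians were -0.14 for endothelium, -0.12 for horizontal basal cells and -0.11 for mesenchyme and bone. They were 0.07 for ensheathing glia and 0.08 for myeloid cells, and no gene of these lists passed. The part of any of these cells in the Jag1 difference was not tested.

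The heterozygous arrays also differed among themselves. Heterozygous replicate 3 had the lowest of the 3 heterozygous values in 6 of the 10 genes (Hes1, Hey1, Heyl, Dll1, Notch1 and Notch2), as it did in 34% of all genes. Its mean log2 signal of horizontal basal markers was 6.69, against 7.34 and 7.38 on heterozygous replicates 1 and 2, and its mean for mature neuron markers was 10.3, against 9.77 and 9.80. The widest heterozygous span was that of Notch2, at 0.71.

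The rest of the pathway was examined through 70 further genes grouped by role, of which 67 had a probe set used here. Over all 6 arrays 0 of them passed in limma (0.552% of all genes did), and 7 had an unadjusted p under 0.05 (9.48% of all genes), 5 higher (4.23%) and 2 lower (5.25%). Their median difference was 0.01, against 0.02 for all genes, and the null values lay wholly above the heterozygous ones in 6 (9.72% of all genes) and wholly below in 4 (8.77%). In the 5 arrays without null replicate 1, 15 of 67 had an unadjusted p under 0.05 (16.3% of all genes). Of these, 6 were higher (7.63%) and 9 lower (8.68%). The null values there lay wholly above the heterozygous ones in 13 of 67 (19.9%) and wholly below in 13 (16.3%). In that fit 1 of 67 passed, against 2.66% of all genes.

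That gene was Bhlhe41, a bHLH repressor related to the Hes and Hey proteins that is known from the circadian clock. It was listed here for this kinship, and a part of it in Notch signalling was not tested. It stood at 5.76, 6.22 and 6.22 on the null arrays, against 6.84, 7.18 and 7.36 on the heterozygous arrays. No null value reached the heterozygous range. The difference was -1.06 (SE 0.19, limma adjusted p = 0.124) over all 6 arrays, and without null replicate 1 it fell by 0.91 (limma adjusted p = 0.0366).

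Other Hes genes stayed short of the threshold. Hes3 differed by 0.29 (limma adjusted p = 0.358) and Hes7, the repressor of the segmentation clock, by 0.30 (limma adjusted p = 0.512), both with all null values above the heterozygous ones. Hes3 was dim, between 4.64 and 5.04, which is under the median of every array. Hey2, named after its values were seen, stood at 9.16 on null replicate 1 and between 4.60 and 5.22 on the other 5 arrays, a wider gap than in any of the 10 genes.

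In the nuclear complex, 0 of 21 genes passed. Tle4, a Groucho-type corepressor recruited by Hes proteins, stood at 7.99, 7.90 and 7.94 in null cells, against 7.49, 7.59 and 7.38 in heterozygous cells. Its groups did not overlap, and the difference was 0.46 (SE 0.09, limma adjusted p = 0.158). The related corepressor Tle3 lay the other way at -0.48 (limma adjusted p = 0.468), with all null values below the heterozygous ones, and Tle2 was at 0.24 (limma adjusted p = 0.527). The coactivator gene Maml2 differed by 0.47 (limma adjusted p = 0.515).

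Further ligand and receptor genes (7 genes), ligand handling genes (5), glycosylation genes (6), cleavage genes (9) and genes of inhibitors and turnover (11) gave no call in either fit. Notch4, the receptor of endothelium, had the smallest unadjusted p of these over all 6 arrays, with a difference of 0.32 (limma adjusted p = 0.516). Notch3, named after its values were seen, stood at 7.97, 6.61 and 6.37 in null cells, against 7.04, 7.05 and 6.82 in heterozygous cells. As in Jag1 and Hes1, null replicate 1 lay above and the other null arrays below every heterozygous array. The difference of Notch3 was 0.01 (limma adjusted p = 0.992), and -0.48 (SE 0.12, limma adjusted p = 0.118) without null replicate 1.

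**Figure D4:**
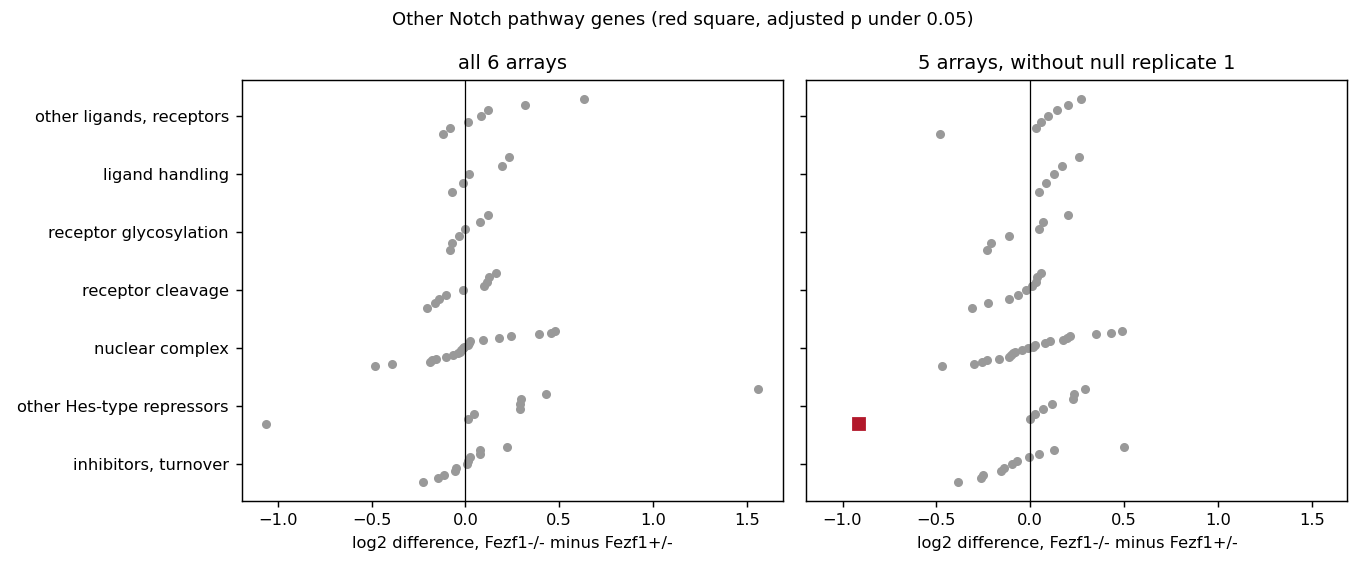
Log2 difference between null (Fezf1-/-) and heterozygous (Fezf1+/-) cells, null minus heterozygous, for 67 other Notch pathway genes grouped by role, over all 6 arrays (left) and without null replicate 1 (right). Points are genes, and the 1 red square, on the right, is Bhlhe41 at -0.91, the sole gene past the adjusted p of 0.05.

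The proneural bHLH genes and their partners, on which Hes and Hey repressors act, gave no call among 13 measured. Id2, an inhibitor of bHLH proteins, stood at 10.19, 10.36 and 10.03 on the null arrays, against 9.41, 9.70 and 9.32 on the heterozygous arrays. All null values were above the heterozygous ones, and the difference was 0.72 (SE 0.14, limma adjusted p = 0.151). Neurod4 differed by -1.93 (limma adjusted p = 0.560), most of it from heterozygous replicate 2 at 8.02, Tcf12 by 0.34 (limma adjusted p = 0.540) and Neurog2 by -0.28 (limma adjusted p = 0.575). Neurog2 was dim, between 4.56 and 5.14, under the median of every array. Neurod4 also lay under the median on all arrays but heterozygous replicate 2.

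Genes with the pattern most like a member were sought by the root mean square distance between values centred on each gene's mean over the 6 arrays. Closest to Dll1 were Wnt3a, Fblim1 and Cnnm2, at distances of 0.056 to 0.058 log2 units. Closest to Hes5 were Desi1, Dsn1 and Zcchc3, at 0.026 to 0.034, where Hes5 itself varied with an SD of 0.17 over the arrays.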

How the data were processed

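The authors deposited 1 log2 signal for each probe set on each array, and the submitters' processing notes name GCRMA and Affymetrix Expression Console. The settings, versions and genome build are not given in the sources used here, and the log base was taken as 2 because values reach 14.5, above the natural logarithm of a 16-bit reading (11.1). GCRMA subtracts an estimated background, so that values near the bottom of the range depend on that estimate. No further scaling was applied, and scanner files were not used here.

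Of 35557 probe sets, 21789 had a single symbol in the platform annotation of 2016, 1621 had several, and 12147 had no entry. Symbols were updated through Entrez numbers to RefSeq names (21698 matched). Each of 19938 genes was represented by its brightest probe set, by the mean of the 6 arrays. Null and heterozygous arrays (3 each) were compared by a two-sided moderated test in limma 3.58.1 (R 4.3.3, functions lmFit and eBayes). P-values were adjusted over the 19938 genes by Benjamini-Hochberg and called under 0.05. The procedure was also run on simulated data in which a gene had noise of the same size on every array. That run does not cover an array that stands apart, as null replicate 1 did. For arrays, their number limits the precision.

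The members and lists were chosen with earlier results of these data known. Of the listed genes, 10 had no probe set used here and were not analysed. Beyond the 10 members, named genes were those called, the 8 other pathway genes and 4 proneural genes with the smallest unadjusted p, and the 3 nearest patterns to Hes5 and to the member with the smallest p. Promoter windows came from RefSeq, GRCm38.p6. Alternatives were quantile normalisation, median centring, a filter at the median mean, averaged probe sets, trend and robust eBayes, array weights, a block by replicate number, and fits that lacked 1 array each.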

Additional observations from a re-analysis of the deposited data

How the results depend on the processing

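The number of genes called depended on several choices, and the calls of pathway genes on null replicate 1. All genes called numbered 110 over 6 arrays, 24 above the median mean (fewer genes tested), 740 with array weights and 40 to 531 when 1 array was left out. Notch members called numbered 0 over all arrays, 1 with array weights (Dll1) and 0 to 1 when an array was left out (Jag1, without null replicate 1). Other pathway genes called numbered 0 over all arrays, 2 with array weights (Bhlhe41 and Tle4) and 0 to 1 when an array was left out. Array weights, which gave null replicate 1 a weight of 0.136, turned the sign of Hes1 (-0.51), Hes5 (-0.011), Hey1 (-0.14), Notch1 (-0.057) and Notch2 (-0.49). When single arrays were left out, differences ran from -0.54 to 0.58 in Hes1, -0.0032 to 0.19 in Hes5, -0.13 to 0.37 in Hey1, -0.00047 to 0.11 in Dll3, -0.81 to 0.044 in Jag1, -0.061 to 0.46 in Notch1 and -0.53 to 0.80 in Notch2. Dll1 (0.41 to 0.56), Heyl (0.25 to 0.63) and Hes6 (-0.32 to -0.19) kept their direction in these fits. Dll1, Dll3 and Heyl fell under the filter on dim genes and had no value there. Quantile normalisation, median centring, averaged probe sets and the trend and robust setting left 0 members called. The replicate block called 88 genes and 0 of the 10 members. Deviations of same-numbered arrays correlated at 0.226 for number 1, -0.332 for number 2 and 0.541 for number 3. Null replicate 1 correlated more with heterozygous replicate 2 (0.373), and null replicate 2 with heterozygous replicate 3 (0.482). These values cannot decide on pairing, because null replicate 1 stood apart and deviations within a group of 3 depend on each other. The numbers were not taken as pairs. Signal over background per probe could not be examined.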
